A study of Mus musculus with 6 samples.

Results

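The genes for peptide presentation by major histocompatibility complex (MHC) class I were examined in mouse hair follicle bulge stem cells (SCs) of 2 genotypes. The 10 genes were picked by symbol from the known pathway, no measured value entered this rule, and all 10 were found among the 43274 genes of the deposited tables. They are the heavy chain genes H2-K1, H2-D1 and H2-T23, the light chain gene B2m, the peptide transport and loading genes Tap1, Tap2 and Tapbp, the immunoproteasome subunit genes Psmb8 and Psmb9, and the transactivator gene Nlrc5.

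A class I molecule consists of a heavy chain, the light chain β2-microglobulin and a short peptide. The proteasome cuts the peptide from cytosolic protein, the TAP transporter carries it into the endoplasmic reticulum, and tapasin holds the empty molecule next to TAP until a peptide binds, after which CD8 T cells read the complex at the cell surface. In the hair follicle, low class I on parts of the epithelium is one feature of what is called immune privilege.

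The study asked how loss of integrin-linked kinase (ILK) changes the transcriptome of bulge SCs, which were sorted from mouse epidermis at postnatal day 21 for surface CD34 and high α6 integrin. Mice with a single floxed Ilk allele plus Cre served as controls (n = 3 libraries, genotype label ILK +/-), and in ILK-K5 mice (n = 3, ILK -/-) both copies of Ilk were floxed with Cre present as well. Cre was under the keratin 5 promoter in both genotypes, so deletion was aimed at keratinocytes, and the controls could also lose their floxed allele. Mice were on a mixed C57Bl6-129/Sv background, controls were littermates and both sexes were used.

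Between 8228019 and 11969072 reads per library fell on genes, and 1 read was worth 0.726 to 1.52 normalized counts. Whether the libraries of a genotype came from separate mice is not given in the labels, so p-values measure the spread between these libraries, which may be partly technical. Ilk itself had 10.6, 16.7 and 38.5 normalized counts in the control and 14.8, 30.9 and 29.2 in the ILK-K5 libraries. Of the exon bases of Ilk, 89.7% also lie in exons of Rrp8 or Taf10 on the opposite strand, so this count did not check the genotype. Cd34, on which cells were sorted, was lower in ILK-K5 (log2 fold change -1.90, adjusted p = 0.0239, limma with Benjamini-Hochberg adjustment). Krt15 and Krt5, keratin genes of bulge and basal keratinocytes, were among the abundant transcripts of every library (at least 10083.5 and 21489 normalized counts) and were not called.

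Promoter sequence is shown for one heavy chain gene and for the light chain gene, because H2-K1 was the single member called different and B2m had the highest level. Both stretches come from RefSeq (GRCm38.p6), end at the base before the annotated start of the gene and run 5′ to 3′ on the strand of the gene. The H2-K1 stretch covers chr17:34000348-34000597 on the minus strand and the B2m stretch chr2:122147437-122147685 on the plus strand. Capitals mark matches, on either strand, to an interferon-stimulated response element (ISRE, GAAANNGAA), a gamma-activated site (GAS, TTCNNNGAA), a CCAAT box (CCAAT), a cyclic AMP response element half-site (TGACG) and the core of an NF-κB site (GGGATTCCC). No marked matches overlap.
H2-K1: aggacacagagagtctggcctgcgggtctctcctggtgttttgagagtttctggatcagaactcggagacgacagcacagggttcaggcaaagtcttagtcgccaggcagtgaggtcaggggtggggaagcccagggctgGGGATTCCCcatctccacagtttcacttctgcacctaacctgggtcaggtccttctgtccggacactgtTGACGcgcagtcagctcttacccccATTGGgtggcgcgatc
B2m: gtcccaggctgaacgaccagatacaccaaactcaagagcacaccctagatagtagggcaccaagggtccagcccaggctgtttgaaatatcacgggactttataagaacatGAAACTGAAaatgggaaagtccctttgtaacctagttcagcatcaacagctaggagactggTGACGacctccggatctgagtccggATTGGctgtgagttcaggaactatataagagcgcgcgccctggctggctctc
Both stretches held a half-site followed by a CCAAT box read on the opposite strand. H2-K1 also held the NF-κB letters and B2m the ISRE letters. The ISRE was searched only as the pattern given above, with its free letters in fixed places. Past its NF-κB letters, H2-K1 held a similar run with the free letters placed differently, which this pattern could not mark. The missing ISRE mark in H2-K1 therefore does not show that an interferon element is absent. Of the 8 members with an entry in the promoter table, searched over the 250 bases before the start, H2-K1 and H2-D1 held the NF-κB letters, which were found upstream of 95 of 27025 genes (0.352%). H2-T23 and B2m held the ISRE letters (8.18% of all genes), Psmb8 held the GAS letters (8.13%), 7 of 8 held a CCAAT box (37.5%) and 5 of 8 a half-site (19.8%). The NF-κB letters are an exact string, whereas the ISRE and GAS patterns leave letters free, so the shares cannot be compared between patterns. They are no test of the members, and a match describes letters and not binding. Psmb9 and Tap1 lie head to head on chromosome 17, with 225 bases between the starts that RefSeq gives them (34187330 and 34187556), while their spans in GENCODE overlap.

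Each of the 10 members had a higher mean in ILK-K5 than in control libraries, and 1 of them, H2-K1, passed the test across all genes. The test was limma on log2 of the normalized count plus 1, fitted to the 16368 genes that averaged 10 or more normalized counts over the 6 libraries, and a gene was called at an adjusted p of at most 0.05. Over all genes tested, 479 (2.93%) were called higher and 98 (0.599%) lower in ILK-K5, and 0 members were called lower (0 at an unadjusted p under 0.05, and 0 with edgeR or DESeq2). The log2 fold changes of the members ran from 0.54 for Tapbp to 3.49 for Psmb9 with a median of 1.44, where the median of all tested genes was 0.0054 and 50.5% of them were positive. In 5 of 10 members every ILK-K5 library lay above every control library, which held for 10.9% of all tested genes (6.95% in the opposite direction). Before adjustment, 8 of 10 members had a p under 0.05 in the higher direction, beside 8.18% of all tested genes. In bulk libraries of sorted cells, a change in the mix of cell types and a change of RNA within a cell cannot be told apart. Macrophage markers moved in the same direction as the members, with a summed level of 208 to 344 normalized counts in the control and 15424 to 22387 in the ILK-K5 libraries, and their part in the results was not tested.

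**Figure D1:**
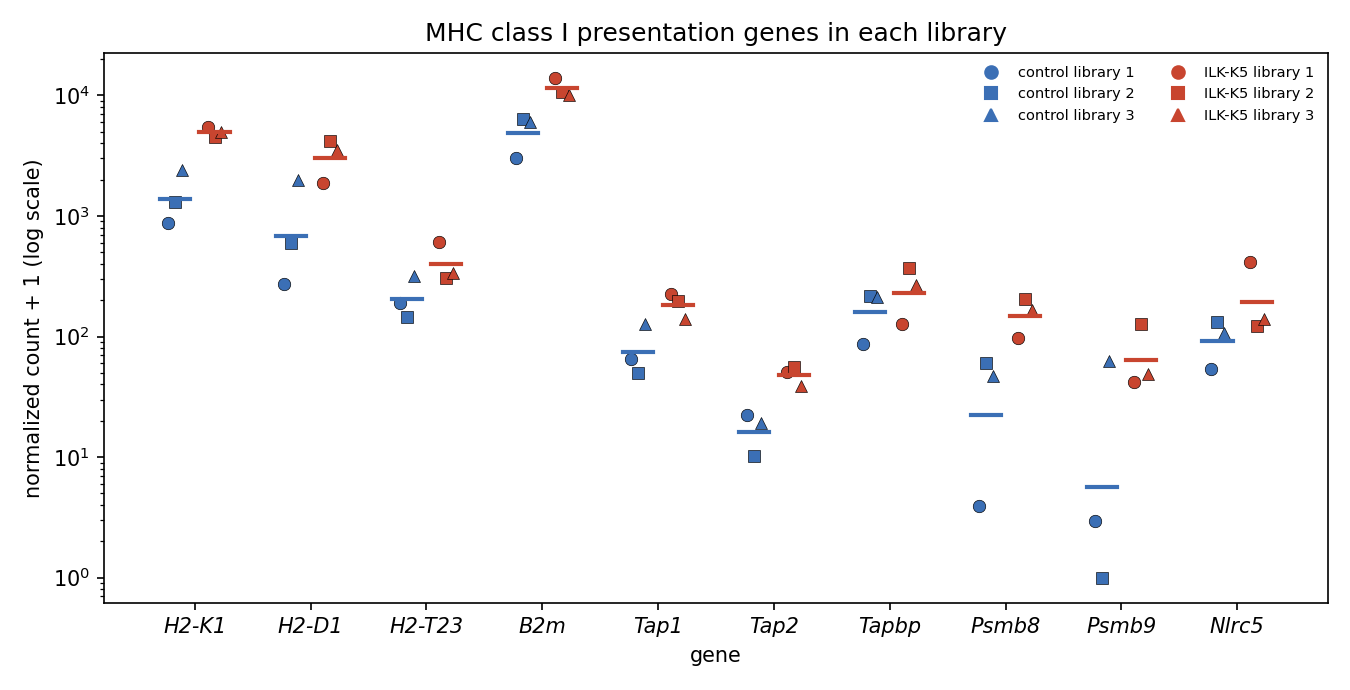
Normalized count plus 1 (log axis) of the 10 members in each of the 3 control (blue) and 3 ILK-K5 (red) libraries, with library number shown by marker shape and the mean on the log scale by a bar. H2-K1, B2m, Tap1, Tap2 and Psmb8 do not overlap between genotypes, and control library 1 is the lowest control in 6 of 10 genes.

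H2-K1 and H2-D1 encode the classical heavy chains, which present peptides to CD8 T cells. H2-K1 (chr17:33996017-34000347, minus strand, GRCm38) had 870.3, 1294 and 2400.3 normalized counts in the control libraries, given in the order of their numbers, and 5483, 4514 and 4966 in the ILK-K5 libraries. The lowest ILK-K5 library thus lay well above the highest control, and the ILK-K5 libraries were close together while the controls spread 2.76-fold from lowest to highest. H2-K1 rose 3.28-fold between the means (log2 fold change 1.83, SE 0.37, 95% interval 1.01 to 2.66, adjusted p = 0.0269, limma with Benjamini-Hochberg adjustment). The call was also made with DESeq2 (adjusted p = 0.00105) and with the library number as a block (limma, adjusted p = 0.00323). It was not made with edgeR (adjusted p = 0.0582) or on FPKM (limma, adjusted p = 0.0568). Leaving out 1 library gave adjusted p-values from 0.00408 (without control library 3) to 0.127 (without control library 2), and the call was lost without control library 1 (0.0505), control library 2, or ILK-K5 library 1 (0.0946), 2 (0.0875) or 3 (0.0968).

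H2-D1 (chr17:35262730-35267499, plus strand) had 269, 595 and 1969 normalized counts in the control and 1866, 4210.3 and 3539 in the ILK-K5 libraries. Control library 3 lay just above ILK-K5 library 1, and the other control libraries lay below all ILK-K5 libraries. The difference was large and imprecise (log2 fold change 2.15, SE 0.64, adjusted p = 0.135, limma with Benjamini-Hochberg adjustment) and was called without control library 3 (adjusted p = 0.0093). H2-T23 encodes Qa-1, a non-classical chain that shows leader peptides of other class I chains to CD94/NKG2 receptors. H2-T23 (chr17:36029773-36032855, minus strand) had 187, 144 and 316 normalized counts in the control and 603, 304 and 337 in the ILK-K5 libraries. The groups overlapped by control library 3, which exceeded ILK-K5 library 2. H2-T23 was not called (log2 fold change 0.95, SE 0.39, adjusted p = 0.347, limma with Benjamini-Hochberg adjustment). Heavy chain genes form a family of similar sequences, and 0.957% of the 100-base stretches of H2-K1 transcripts, 3.59% of H2-D1 and 3.15% of H2-T23 also occur in transcripts of other genes, so reads may have been split between them.

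B2m encodes the light chain shared by all class I molecules. B2m (chr2:122147686-122153083, plus strand) had 3012, 6405 and 6023 normalized counts in the control and 13948, 10754 and 10133 in the ILK-K5 libraries. No ILK-K5 library reached down to a control, and control library 1 was the lowest control. The means differed 2.26-fold, and the gene missed the threshold (log2 fold change 1.24, SE 0.36, 95% interval 0.43 to 2.04, adjusted p = 0.123, limma with Benjamini-Hochberg adjustment). B2m was called with DESeq2 (adjusted p = 0.0304) and not with edgeR (adjusted p = 0.184). In limma it was also called with the library number as a block (adjusted p = 0.0447) or a term for library 1 (adjusted p = 0.0448). None of the 100-base stretches of its transcripts occurred in another gene.

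**Figure D2:**
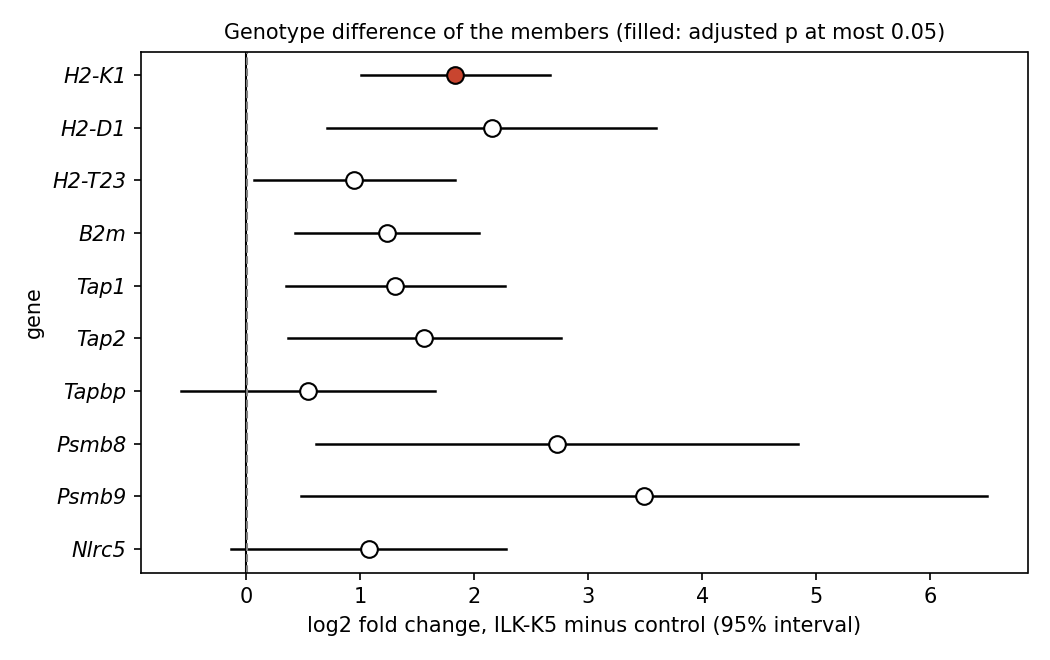
Log2 fold change (ILK-K5 minus control, x axis) of each member with its 95% interval from limma, where the filled point marks H2-K1, the gene called, and the dashed line the median of all tested genes. All 10 points are positive, and the intervals of Tapbp and Nlrc5 include 0.

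Tap1 and Tap2 encode the subunits of the peptide transporter. Tap1 (chr17:34187553-34197225, plus strand) had 63.7, 48.7 and 126 normalized counts in the control and 224, 195 and 138 in the ILK-K5 libraries. Tap2 (chr17:34203527-34216321, plus strand) had 21.2, 9.12 and 18.1 normalized counts in the control and 50.1, 54.8 and 38.0 in the ILK-K5 libraries. Neither gene overlapped between genotypes, with a narrow gap between control library 3 and ILK-K5 library 3 for Tap1. The log2 fold change was 1.31 (SE 0.43, adjusted p = 0.187) for Tap1 and 1.56 (SE 0.53, adjusted p = 0.211) for Tap2 in limma with Benjamini-Hochberg adjustment. Tapbp encodes tapasin, which bridges TAP and the empty class I molecule. Tapbp (chr17:33915899-33929292, plus strand) had 85.9, 216 and 211 normalized counts in the control and 126, 366 and 264 in the ILK-K5 libraries. In both genotypes library 1 was the lowest, and ILK-K5 library 1 lay below control libraries 2 and 3. Tapbp had the smallest difference of the members (log2 fold change 0.54, 95% interval -0.57 to 1.66, adjusted p = 0.800, limma with Benjamini-Hochberg adjustment). Exons of other genes cover 29.0% of the exon bases of Tapbp and 18.5% of Tap2, so their counts are less certain than those of Tap1, where this share was 3.87%.

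Psmb8 and Psmb9 encode catalytic subunits that replace Psmb5 and Psmb6 in the immunoproteasome, the form of the proteasome that interferon induces and that blood cells contain. Psmb8 (chr17:34197721-34201454, plus strand) had 2.89, 59.3 and 46.4 normalized counts in the control and 95.6, 203 and 164 in the ILK-K5 libraries. Psmb9 (chr17:34181987-34187764, minus strand) had 1.93, 0 and 61.7 normalized counts in the control and 41.0, 126 and 47.7 in the ILK-K5 libraries. Control library 1 held 3 reads of Psmb8 and 2 of Psmb9, and control library 2 held 0 reads of Psmb9, where 3 reads would be 4.56 normalized counts. Control library 3, by contrast, had more Psmb9 than ILK-K5 libraries 1 and 3. The fold changes were the least precise of the members, at a log2 of 2.73 (SE 0.94, adjusted p = 0.218) for Psmb8 and 3.49 (SE 1.33, adjusted p = 0.289) for Psmb9 in limma with Benjamini-Hochberg adjustment. Without control library 1 the log2 fold change of Psmb8 was 1.47. That of Psmb9 ran from 1.67 in edgeR to 5.22 without control library 3, where Psmb9 was called (adjusted p = 0.0115). An opposite-strand gene, Gm20496, covers 14.7% of the exon bases of Psmb8.

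The exchange of subunits was compared within a library and per length, as log2 of the ratio of FPKM (a read count scaled for gene length and library depth, plus 0.1) of each immunoproteasome subunit to the constitutive subunit it replaces. Psmb8 made up 0.191%, 2.22% and 2.84% of the summed FPKM of Psmb8 and Psmb5 in the control and 4.55%, 6.07% and 5.91% in the ILK-K5 libraries. Psmb9 made up 0.219%, 0% and 5.29% of its pair with Psmb6 in the control and 7.60%, 9.92% and 6.10% in the ILK-K5 libraries. Psmb10, the remaining immunoproteasome subunit and not one of the 10 members, made up 1.89%, 1.09% and 2.68% of its pair with Psmb7 in the control and 5.03%, 5.70% and 4.64% in the ILK-K5 libraries. For each pair the immunoproteasome share was higher in every ILK-K5 library than in any control, and the constitutive subunit stayed the main one in all 6 libraries. The log2 ratios differed by 2.08 for Psmb8 to Psmb5, 2.86 for Psmb9 to Psmb6 and 1.48 for Psmb10 to Psmb7. Each of these 3 comparisons gave p = 0.1 in a two-sided exact permutation test, also after adjustment over the 3, and 0.1 is the smallest p that 3 libraries against 3 allow. Control library 1 weighed on the first of them, and without it the difference for Psmb8 to Psmb5 was 1.12. The difference for Psmb9 to Psmb6 was 3.99 without control library 3 and 2.21 without control library 2.

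**Figure D3:**
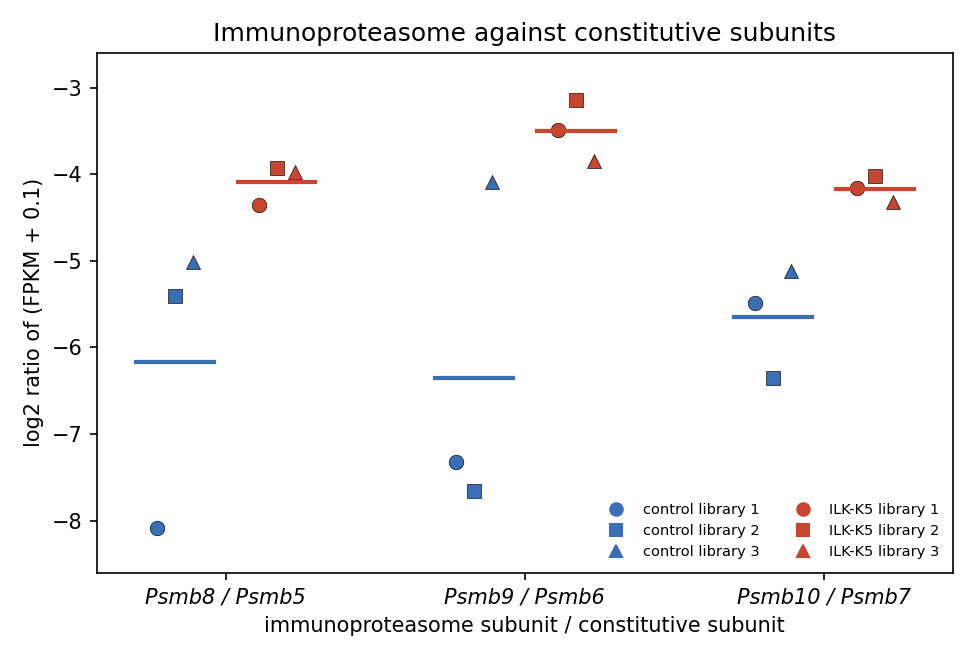
Log2 ratio of FPKM plus 0.1 of each immunoproteasome subunit to its constitutive counterpart (y axis) in every library, with bars for the mean of 3 libraries per genotype. ILK-K5 libraries lie above all controls for each pair, by a narrow gap for Psmb9 to Psmb6, where control library 3 sits near the ILK-K5 libraries and the other controls far below.

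Nlrc5 encodes the transactivator of class I genes, which acts at their promoters with the RFX, CREB and NF-Y factors. Nlrc5 (chr8:94434356-94527272, plus strand) had 53.1, 131 and 106 normalized counts in the control and 411, 122 and 139 in the ILK-K5 libraries. ILK-K5 library 1 stood far above the rest, and the other ILK-K5 libraries were at the level of the controls. Nlrc5 was not called (log2 fold change 1.07, 95% interval -0.13 to 2.28, adjusted p = 0.498, limma with Benjamini-Hochberg adjustment), and without ILK-K5 library 1 its log2 fold change was 0.52.

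The members did not rank the libraries in 1 order. Among the controls, library 1 was lowest in 6 of 10 members and library 3 highest in 5 and lowest in 0. Among the ILK-K5 libraries, library 1 was highest for H2-K1, H2-T23, B2m, Tap1 and Nlrc5 and lowest for H2-D1, Tapbp, Psmb8 and Psmb9, and library 3 was highest for 0. The labels give each control library the same code as the ILK-K5 library of its number and do not explain the codes, so a pairing by number is possible. A fit with the number as a block called 4 members (H2-K1, H2-D1, B2m and Psmb8), and 848 of the 16368 tested genes, higher. The code of libraries 1 is unlike the codes of libraries 2 and 3, which resemble each other, so values are also given within these sets. Between libraries 1 of the genotypes, with no replicate, the difference in log2 of the count plus 1 was positive for all 10 members, from 0.55 for Tapbp to 4.63 for Psmb8. Within libraries 2 and 3 it was also positive for all 10, from 0.15 for Nlrc5 to 3.32 for Psmb9, with 1.43 for H2-K1 (adjusted p = 0.121, limma with Benjamini-Hochberg adjustment) and 0 members called.

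Per length, B2m had the highest level in both genotypes, with 359 to 764 FPKM in the control and 1208 to 1663 FPKM in the ILK-K5 libraries, and did not overlap with any heavy chain. H2-K1 followed with 34.2 to 94.4 FPKM in the control and 177 to 216 FPKM in the ILK-K5 libraries, then H2-D1 with 10.7 to 78.3 FPKM and 74.2 to 167 FPKM. The levels of H2-K1 and H2-D1 overlapped in the controls and not in ILK-K5. H2-T23 and Tapbp came next at 5.13 to 11.2 FPKM and 2.67 to 6.72 FPKM in the control and 10.8 to 21.4 FPKM and 3.93 to 11.4 FPKM in ILK-K5, and overlapped in both genotypes. The remaining 5 genes had means between 0.438 and 1.48 FPKM in the control and between 1.29 and 5.77 FPKM in ILK-K5, and neighbours among them overlapped, while Tapbp lay above Tap1 in the controls without overlap. H2-D1 reached 0.313, 0.465 and 0.829 of the FPKM of H2-K1 in the control libraries and 0.344, 0.943 and 0.721 in the ILK-K5 libraries. This ratio was lowest in library 1 of each genotype and its range was shared between genotypes.

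Of the 87 further genes listed for the class I pathway and its context, 84 were in the table and 62 were tested. Of these, 8 were called higher and 0 lower, with a median log2 fold change of 0.48. In the higher direction 18 did not overlap, and in the lower direction 3. Over all tested genes, 2.93% were called higher and 0.599% lower, and 10.9% did not overlap in the higher and 6.95% in the lower direction. Among other class I heavy chains 1 of 11 was called, H2-M2, a non-classical chain with 3.86, 54.7 and 154 normalized counts in the control and 1894, 1325 and 1249.7 in the ILK-K5 libraries (log2 fold change 5.40, adjusted p = 0.0203, limma with Benjamini-Hochberg adjustment). The groups were far apart for H2-M2, and the controls ranged widely among themselves. Among class I-like chains that pair with β2-microglobulin 1 of 4 was called, Hfe, which controls iron uptake and had 57.9, 31.9 and 49.3 normalized counts in the control and 255, 187 and 149 in the ILK-K5 libraries (log2 fold change 2.07, adjusted p = 0.0203, limma with Benjamini-Hochberg adjustment).

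Genes listed for peptide trimming and for the folding and loading of class I chains were not called (0 of 9 in limma, edgeR and DESeq2). At an unadjusted p under 0.05 there were 0, and the log2 fold changes lay between -0.0013 and 0.57. The other proteasome genes were not called either (0 of 8 in the same tools, and 1, Psmb10, at an unadjusted p under 0.05), with a median log2 fold change of 0.22. The constitutive catalytic subunits had log2 fold changes of 0.46 for Psmb5, -0.24 for Psmb6 and 0.03 for Psmb7, and Psmb10 had 1.53. The activator subunits had 0.30 for Psme1, 0.28 for Psme2 and 0.16 for Psme3, and the assembly factor Pomp had 0.15. Library 1 was the lowest of its genotype for Psmb5, Psmb7, Psmb10, Psme1, Psme2, Psme3 and Pomp in both genotypes, as it was for the members H2-D1, Tapbp and Psmb8.

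Among genes of the MHC enhanceosome, the set of factors that binds these promoters, 1 of 8 was called. This was Ciita, the transactivator of class II genes, with 0.965, 16.7 and 10.9 normalized counts in the control and 602, 252 and 299 in the ILK-K5 libraries (log2 fold change 5.59, adjusted p = 0.00437, limma with Benjamini-Hochberg adjustment). The lowest ILK-K5 library of Ciita lay far above the highest control. Rfx5, a subunit of the shared RFX factor, had 83.0, 80.6 and 112 normalized counts in the control and 157, 103 and 94.5 in the ILK-K5 libraries and was not called (log2 fold change 0.34, adjusted p = 0.840, limma with Benjamini-Hochberg adjustment).

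In the interferon list 1 of 13 tested genes was called. In the higher direction 8 of 13 did not overlap, beside 10.9% of all tested genes. The called gene was Irf8, a transcription factor of myeloid cells, which had 0.965, 1.52 and 0 normalized counts in the control and 137, 108 and 99.4 in the ILK-K5 libraries and was at least 35.7-fold higher against a floor of 3 reads per library (adjusted p = 0.00107, limma with Benjamini-Hochberg adjustment). Irf1 carries the interferon signal to class I promoters, and its groups overlapped. Irf1 had 36.7, 16.7 and 139 normalized counts in the control and 93.4, 128 and 114 in the ILK-K5 libraries (log2 fold change 1.30, adjusted p = 0.533, limma with Benjamini-Hochberg adjustment), with control library 3 above all ILK-K5 libraries. Irf2, a related factor, had 160, 155 and 189 normalized counts in the control and 254, 243 and 226 in the ILK-K5 libraries, did not overlap and was not called (log2 fold change 0.52, adjusted p = 0.544, limma with Benjamini-Hochberg adjustment). Ifng, the gene of interferon gamma itself, was at or below 1.93 normalized counts in all libraries and was not tested.

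Among receptors of class I and class I-like ligands both tested genes were called. Pirb, an inhibitory receptor of myeloid and B cells that binds class I, had 26.1, 9.12 and 26.9 normalized counts in the control and 477, 420.3 and 366 in the ILK-K5 libraries (log2 fold change 4.41, adjusted p = 9.78e-04, limma with Benjamini-Hochberg adjustment). Klrk1, which encodes NKG2D, had 0, 1.52 and 3.63 normalized counts in the control and 31.9, 30.9 and 27.3 in the ILK-K5 libraries (log2 fold change 3.77, adjusted p = 0.0393, limma with Benjamini-Hochberg adjustment). Cd8a, Cd8b1, Klrd1, Klrc1 and Klrc2 were below the limit for testing. H60c, a ligand of NKG2D, was the single tested ligand and lay lower in every ILK-K5 library without being called (log2 fold change -1.18, adjusted p = 0.168, limma with Benjamini-Hochberg adjustment). Genes listed as guardians of immune privilege split in direction, with 3 positive and 3 negative log2 fold changes among the 6 tested and a lowest of -0.75. In the higher direction 3 did not overlap and in the lower direction 1, beside 10.9% and 6.95% of all tested genes. Of the 6, 2 were called, the growth factor gene Igf1 and Cd274, which encodes the inhibitory ligand PD-L1. Igf1 had 16.4, 19.8 and 14.5 normalized counts in the control and 538, 842 and 777 in the ILK-K5 libraries (log2 fold change 5.32, adjusted p = 1.40e-04, limma with Benjamini-Hochberg adjustment). Cd274 had 62.7, 47.1 and 55.9 normalized counts in the control and 401, 198 and 251 in the ILK-K5 libraries (log2 fold change 2.29, adjusted p = 0.0091, limma with Benjamini-Hochberg adjustment). For both genes the controls were tight and all ILK-K5 libraries high. Of the 8 called pathway genes, Ciita, Irf8, Pirb and Igf1 were called in all 6 fits with 1 library left out, and Cd274 in 5, all but the one without ILK-K5 library 3. H2-M2, Hfe and Klrk1 were called in 2 of the 6, those without control library 1 or control library 3.

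**Figure D4:**
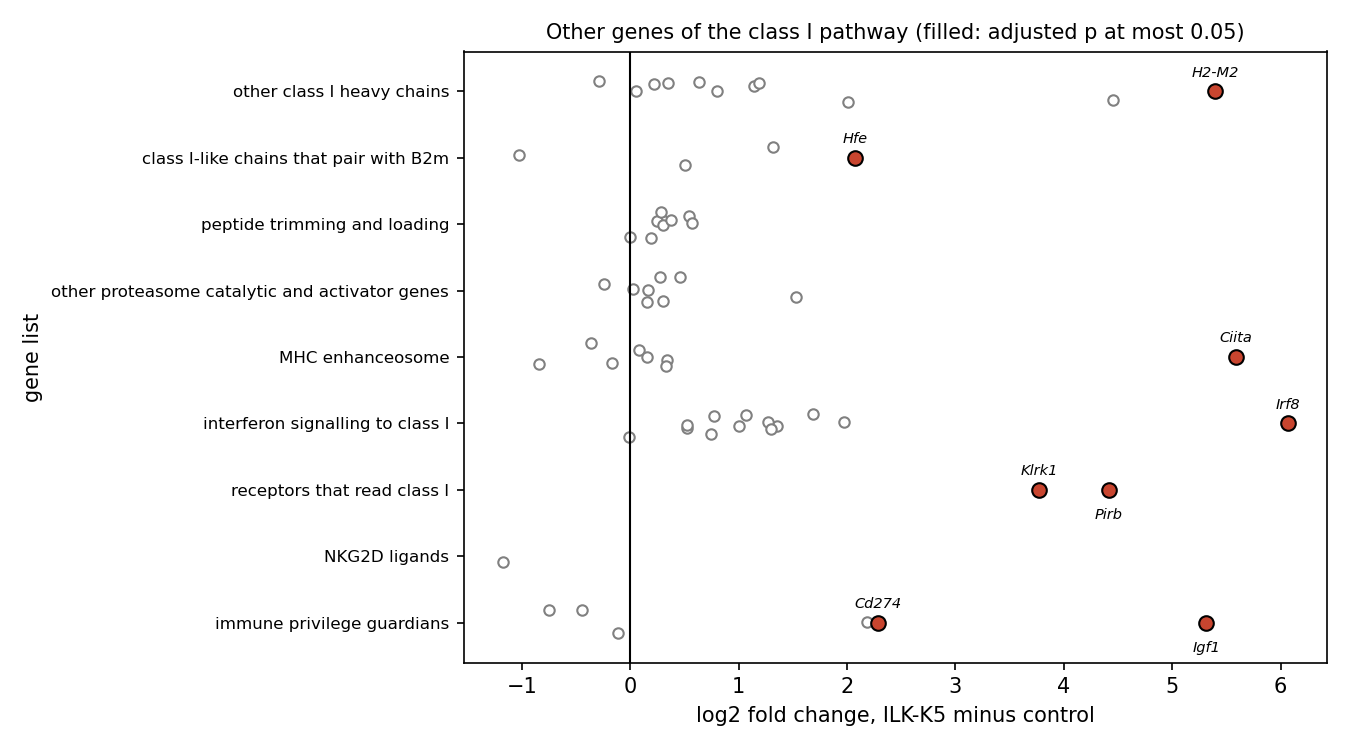
Log2 fold change (ILK-K5 minus control, x axis) of the 62 tested genes in 9 lists of the class I pathway and its context, 1 point per gene, with the 8 genes called in limma filled and named. Peptide trimming and proteasome genes sit near 0, apart from Psmb10 at 1.53, while the called genes lie between 2.07 and 6.07.

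Of the 14 macrophage markers listed, all 13 that were tested were called higher. Adgre1, which encodes F4/80, had 0.965, 16.7 and 16.0 normalized counts in the control and 857, 757 and 688 in the ILK-K5 libraries, and Fcgr1 had 0 reads in all controls. General leukocyte markers were called higher in 5 of 5 genes, with a sum of 39.6 to 107 normalized counts in the control and 2877 to 3734 in ILK-K5. Ptprc, which encodes the leukocyte protein CD45, had 28.0, 22.8 and 50.8 normalized counts in the control and 1431, 1111 and 1010.1 in the ILK-K5 libraries. The part of leukocytes in the differences of H2-K1 and the other members was not tested.

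Class I genes were also present where these markers were low. In the controls the summed level of the members was 4567, 8901 and 11277 normalized counts, and in ILK-K5 it was 22848, 20850.2 and 19766. Control library 3 had the highest summed level of the members and the lowest of the macrophage markers among controls, together with the highest of the general leukocyte and of the Langerhans and dendritic cell markers. The order of the macrophage sums (308, 344 and 208 normalized counts in control libraries 1, 2 and 3) rested on Itgam. That gene alone had 197, 190 and 45.7 normalized counts in these libraries. Langerhans and dendritic cell markers were called in 1 of 5 tested genes, with sums of 53.1 to 103 normalized counts in the control and 959 to 1620.1 in ILK-K5. In this list 4 of 5 lay higher in every ILK-K5 library, beside 10.9% of all tested genes. At an unadjusted p under 0.05 there were 4, and edgeR called 1 and DESeq2 3. The gene called in limma was Itgax, which macrophages can also express (log2 fold change 6.21, adjusted p = 7.82e-05, limma with Benjamini-Hochberg adjustment). Cd207, the langerin gene of Langerhans cells, had 7.72, 42.6 and 68.2 normalized counts in the control and 425, 133 and 108 in the ILK-K5 libraries and was not called (adjusted p = 0.148, limma with Benjamini-Hochberg adjustment).

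Markers of T and NK cells were called in 0 of 5 tested genes, with 3 at an unadjusted p under 0.05, 0 in edgeR and 2 in DESeq2 (Cd3g and Nkg7), and sums of 128 to 152 normalized counts in the control and 197 to 314 in ILK-K5. Cd3e, a subunit of the T cell receptor complex, had 2.89, 6.08 and 49.3 normalized counts in the control and 44.4, 57.1 and 89.6 in the ILK-K5 libraries. Cd3d, of the same complex, went the other way, with 118, 97.3 and 37.7 in the control and 88.8, 39.3 and 45.8 in the ILK-K5 libraries. Cd247 differed 1.26-fold between the means, and Cd3e, Cd3d and Cd247 overlapped between genotypes. The remaining 2 of 5 tested genes, Cd3g and Nkg7, lay higher in every ILK-K5 library, beside 10.9% of all tested genes. Cd3g had 4.82, 6.08 and 16.0 normalized counts in the control and 42.1, 30.9 and 61.4 in the ILK-K5 libraries. Nkg7 had 0, 0 and 6.53 in the control and 12.5, 32.4 and 77.0 in the ILK-K5 libraries. Gzma and Ncr1 had 0 reads in all controls and at most 2 reads in any ILK-K5 library. Markers of B cells (0 of 1 tested), neutrophils (0 of 2), endothelial cells (0 of 2), fibroblasts (0 of 3) and melanocytes (0 of 4) were not called in limma or edgeR, and DESeq2 called Csf3r, Tek and Tyrp1. Of these, the neutrophil marker Csf3r and the melanocyte marker Tyrp1 lay higher in every ILK-K5 library, and the endothelial marker Tek lay lower. Unadjusted p-values under 0.05 numbered 0 for B cell, 2 for neutrophil and 1 each for endothelial, fibroblast and melanocyte markers. Lum had 0 reads in all controls, and Ly6g, Retnlg and Cd79a had 0 reads in all ILK-K5 libraries. Bulge SC markers summed to 73794 to 183107 normalized counts in the control and 53744 to 94597 in ILK-K5, and 1 of 10, Cd34, was called lower. Krt15 and Krt5, which were not called, made up most of each sum. Over the 10 markers the median log2 fold change was -0.074, with 4 positive and 6 negative. In the higher direction 1 did not overlap and in the lower direction 2, beside 10.9% and 6.95% of all tested genes.

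**Figure D5:**
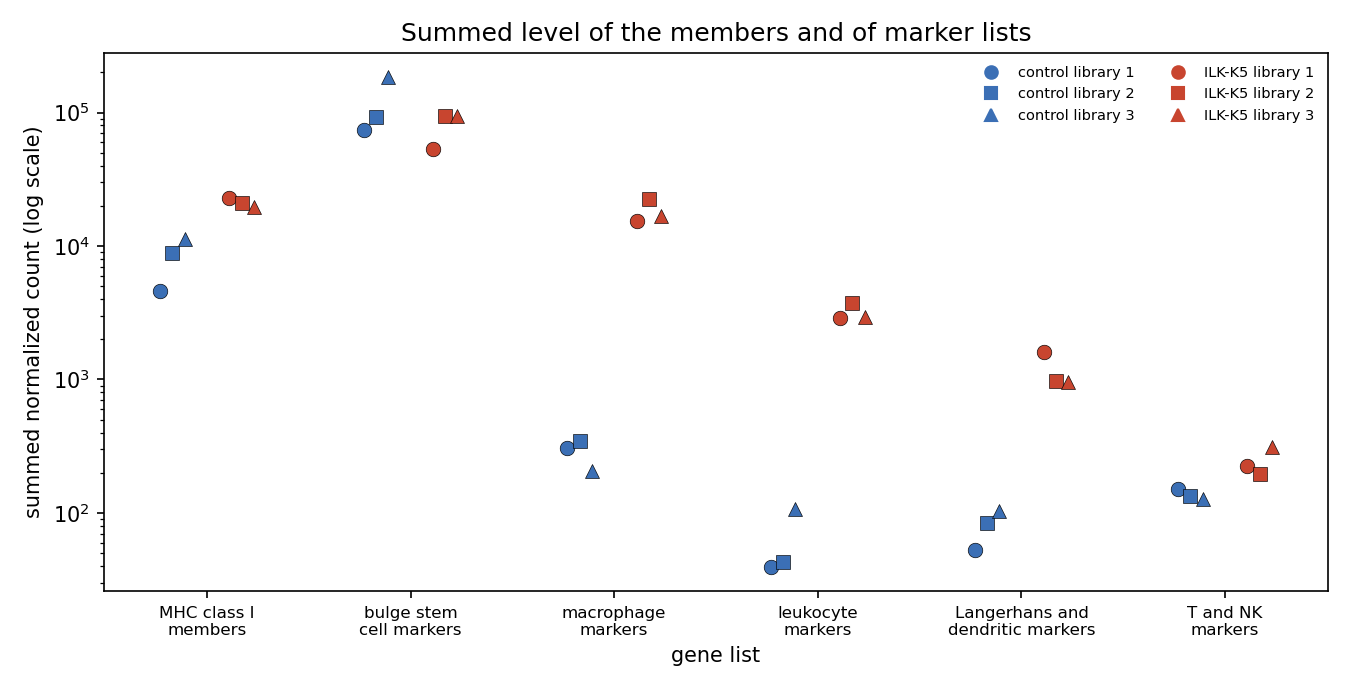
Summed normalized count (log axis) of the 10 members and of 5 marker lists in each library, with the 3 control libraries in blue, the 3 ILK-K5 libraries in red and the library number by marker shape. The members sum to 4567 to 11277 in the control and 19766 to 22848 in ILK-K5, while macrophage markers go from 208 to 344 up to 15424 to 22387.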

How the data were processed

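Bulge SCs were sorted into TRIzol LS, RNA was amplified as cDNA (Ovation RNA-Seq System V2, which keeps no strand) and libraries were made with Nextera XT and sequenced in pairs of 100 bases. Per the labels and the study's methods, the authors trimmed adapters, removed ribosomal reads and aligned to GRCm38, and the submitters' processing notes name TopHat2 2.0.14, Bowtie2 2.2.4 and DESeq2 1.6.3. The read counter and its handling of overlapping genes are not given in the sources used here. The authors deposited a signal table of normalized counts and an FPKM table. Every normalized count (100% of values, tolerance 0.01 of a read) was a whole number of reads over the library's size factor, so reads could be recovered, and FPKM was the normalized count times a constant of the gene. Further deposited tables hold the authors' comparison (mean, log2 fold change, its error, statistic and p-values) and were not used.

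Genotypes were compared with limma 3.58.1 (lmFit, eBayes with trend) in R 4.3.3, with log2(normalized count + 1) as the response, over genes with a mean of at least 10 in 3 control and 3 ILK-K5 libraries, without covariates. P-values are two-sided and Benjamini-Hochberg adjusted over the 16368 genes, with calls at 0.05 or less. The script was tested on simulated data. The study used DESeq2, which was run as an alternative with edgeR. Symbols (97.3% of genes), coordinates, exons and transcripts came from GENCODE M21, and promoters, counted over 250 bases before the start, from RefSeq. The 10 members and all lists were chosen with earlier results of these data known. The text names all members, every called gene of the pathway lists, the proteasome list, and Rfx5, Irf1, Irf2 and Ciita. A gene that this rule also names is not reported here. Ilk was named as the targeted gene, and H60c, Ifng, Itgax and the untested receptors after their values were seen. Among marker genes, Ptprc, Adgre1, Cd207, Cd3e, Cd34, Krt15, Krt5 and those at 0 reads in a genotype are named. Cd3d, Cd3g, Cd247, Nkg7, Itgam, Csf3r, Tek and Tyrp1 were named after their values were seen. Alternatives were other pseudocounts, filters, scalings and tools, a replicate block, a term for library 1, libraries 2 and 3 alone and each library left out.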

Additional observations from a re-analysis of the deposited data

How the results depend on the processing

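The direction of all tested members was positive in the planned analysis and in all 18 alternatives, with the lowest log2 fold change (0.11) for Tapbp without control library 1 and a median over the members between 1.24 and 1.69. How many members were called was less stable. The count of members called higher was 1 in the planned analysis, 0 with FPKM plus 0.1, 0 with edgeR, 0 with libraries 2 and 3 only, 2 with DESeq2 (H2-K1 and B2m) and 0 to 3 with 1 library left out. H2-K1 was called in 9 of 12 alternatives that left out no single library and in 1 of 6 that did, with adjusted p = 0.0568 for FPKM and 0.0582 in edgeR. DESeq2 gave no adjusted p for Psmb9, and the filter at a mean of 50 removed Tap2 and Psmb9. The cause of these changes was not tested.

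Same-numbered libraries had correlations of 0.529, 0.0198 and 0.307 between their deviations from the genotype means. Control library 3 went more with ILK-K5 library 2 (0.498) than with its own number, and the planned fit did not take the replicate numbers as pairs. Same-numbered libraries share a code in the labels and controls were littermates, so these correlations do not exclude a pairing. Libraries 1 deviated together and apart from libraries 2 and 3 of the other genotype (-0.450 and -0.325 for control library 1, -0.0600 and -0.553 for ILK-K5 library 1). The planned fit did not model this structure. A fit with a replicate block called 4 members (H2-K1, H2-D1, B2m and Psmb8), 848 genes higher and 269 lower over all genes, and 13 pathway genes higher and 1 lower. A term for library 1 against libraries 2 and 3 called 4 members, 846 genes higher, 286 lower and 1 pathway gene (H60c) lower. DESeq2 called 782 genes higher and 272 lower. Leaving out 1 library gave 222 to 559 genes higher, 32 to 98 lower, 4 to 11 pathway genes higher and 0 to 1 lower (11 when control library 3 was absent, 4 when ILK-K5 library 3 was). Psmb6 turned to 0.047 on the log2 scale with libraries 2 and 3 only. Among single libraries left out, the log2 fold change ran from -0.55 to 0.052 for Psmb6, -0.40 to 0.45 for Psmb7, -0.12 to 0.62 for Psme2, -0.045 to 0.49 for Psme3 and -0.33 to 0.61 for Pomp, none of them called. The size of the subunit ratios depended on the value added to FPKM, from 1.22 to 4.34 for Psmb9 to Psmb6 and 1.16 to 2.37 for Psmb8 to Psmb5 with 1 and 0.01 added. Few reads limit Tap2, Psmb8 and Psmb9 in the controls.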
